A study of Mus musculus with 4 samples.

Results

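The genes described here encode the subunits of the respiratory chain and the ATP synthase that are made from nuclear genes. They were chosen by name from the deposited tables, as genes whose name starts with Nduf (other than Ndufaf) for complex I, equals Sdha, Sdhb, Sdhc or Sdhd for complex II, or starts with Uqcr for complex III, with Cox4, Cox5, Cox6, Cox7 or Cox8 for complex IV, or with Atp5 for complex V. Names ending in -ps were dropped, and each gene was read from its transcript with the highest mean. The rule gave 80 genes of 13792 with a name, of which 37 fell to complex I, 4 to complex II, 8 to complex III, 14 to complex IV and 17 to complex V. Complexes I to IV pass electrons from NADH and succinate to oxygen in the inner mitochondrial membrane, and complexes I, III and IV pump protons as they do so. Complex V lets the protons back in and makes ATP. Apart from complex II, each complex is built from nuclear and mitochondrial gene products together, and regulatory T (Treg) cells are known to rely on oxidative metabolism.

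Treg cells from C57BL/6 spleens were sorted and their RNA was sequenced. There were 2 libraries from mice with a conditional knockout of the histone methyltransferase gene Nsd2 in Treg cells (cKO) and 2 from wild-type mice (WT). The labels name neither the driver of the deletion nor the age of the mice. Each library pooled RNA of no fewer than 3 mice, so the spread between libraries is one between pools and may be partly technical. The labels number the libraries of each genotype 1 and 2. Values are RPKM, that is reads scaled by the length of the transcript and by the reads of the library, so levels of different genes are compared per length. The steps between low values gave a depth of 19225000 and 21200000 reads in the cKO libraries, against 19450000 and 19040000 reads in the WT libraries. The targeted gene, listed as Whsc1, stood at 3.46 and 4.27 RPKM in cKO, against 6.82 and 7.44 RPKM in WT, so that both cKO libraries were below both WT libraries. The 6 Treg markers, Foxp3 among them, summed to 836 and 919 RPKM in cKO, against 841 and 892 RPKM in WT. The 5 myeloid markers summed to 12.1 and 5.50 RPKM in cKO, against 5.58 and 7.55 RPKM in WT. In bulk samples, fewer cells of a type and less RNA per cell cannot be told apart.

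The name rule caught 4 genes that are not subunits of the complex their name points to. Cox4nb encodes a member of the endoplasmic reticulum membrane complex, Cox7a2l a factor of respiratory supercomplexes, and Atp5s and Atp5sl proteins outside the core ATP synthase. The subunit Ndufa4 is counted with complex I by name and is now placed in complex IV. Of the 80 genes, 78 had a mean of at least 1 RPKM and entered the test over all 10531 such genes. Cox7a1 and Cox6b2, the tissue-restricted forms of complex IV subunits, were under it.

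Promoters of these genes that hold a motif match are shown first, 1 for each complex. Nuclear respiratory genes are known targets of the factors NRF1, GABP (an ETS factor) and YY1. Each sequence is 5′ to 3′ on the gene's strand and runs from 250 bases before to 50 bases after the start site, from RefSeq on GRCm38.p6. Capitals mark a match to a motif of 1 of these factors on either strand. The ETS motif searched was CCGGAAG, which reads CTTCCGG where it lies on the other strand. The YY1 motif searched is the run of capitals in Ndufs7, and the NRF1 motif the run of capitals in Cox6a1 and Atp5k that reads the same on both strands. The promoter of Ndufs7, a core subunit of complex I (chr10:80249199-80249498, plus strand), held a YY1 match. Its window lies wholly inside the gene as annotated (chr10:80249105-80256794), so the start site used for Ndufs7 is not the outermost one. The promoters of Sdhd, the small membrane anchor of complex II (chr9:50603800-50604099, minus strand), and of Uqcrh, the hinge subunit of complex III (chr4:116075021-116075320, minus strand), each held an ETS match. Those of Cox6a1, a complex IV subunit (chr5:115348909-115349208, minus strand), and Atp5k, the e subunit of complex V (chr5:108434350-108434649, minus strand), each held an NRF1 and an ETS match.
Ndufs7: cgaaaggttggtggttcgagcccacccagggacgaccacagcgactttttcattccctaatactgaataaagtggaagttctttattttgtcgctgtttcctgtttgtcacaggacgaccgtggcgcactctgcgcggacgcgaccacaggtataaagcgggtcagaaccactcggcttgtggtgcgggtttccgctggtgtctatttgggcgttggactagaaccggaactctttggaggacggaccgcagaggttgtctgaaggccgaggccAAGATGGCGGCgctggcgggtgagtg
Sdhd: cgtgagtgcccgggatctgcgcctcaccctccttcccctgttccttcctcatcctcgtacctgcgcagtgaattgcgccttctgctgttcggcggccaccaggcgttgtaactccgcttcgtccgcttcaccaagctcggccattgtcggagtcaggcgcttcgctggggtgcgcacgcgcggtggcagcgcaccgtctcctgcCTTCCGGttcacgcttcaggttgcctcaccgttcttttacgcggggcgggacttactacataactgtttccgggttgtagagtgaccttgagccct
Uqcrh: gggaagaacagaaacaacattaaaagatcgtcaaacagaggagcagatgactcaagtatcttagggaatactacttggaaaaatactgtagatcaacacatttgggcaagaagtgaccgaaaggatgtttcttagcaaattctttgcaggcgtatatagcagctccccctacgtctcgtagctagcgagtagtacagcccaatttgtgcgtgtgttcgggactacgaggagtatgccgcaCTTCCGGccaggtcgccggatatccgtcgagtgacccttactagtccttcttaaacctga
Cox6a1: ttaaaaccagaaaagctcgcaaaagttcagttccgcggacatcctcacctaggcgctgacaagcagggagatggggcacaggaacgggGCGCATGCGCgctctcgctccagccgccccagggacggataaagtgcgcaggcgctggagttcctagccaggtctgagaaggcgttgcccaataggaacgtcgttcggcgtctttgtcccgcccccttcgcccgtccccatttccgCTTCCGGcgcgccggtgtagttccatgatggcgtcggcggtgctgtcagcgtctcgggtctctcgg
Atp5k: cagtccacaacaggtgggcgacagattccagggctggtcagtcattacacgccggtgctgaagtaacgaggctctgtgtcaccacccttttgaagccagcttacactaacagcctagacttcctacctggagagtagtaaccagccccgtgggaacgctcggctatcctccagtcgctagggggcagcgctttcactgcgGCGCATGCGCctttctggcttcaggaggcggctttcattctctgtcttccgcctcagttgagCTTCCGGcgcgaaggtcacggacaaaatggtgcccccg

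The promoter table held 74 promoters of 68 of the 80 genes. An NRF1 match was in 6.76% of them, an ETS match in 21.6% and a YY1 match in 8.11%. Over all 32851 promoters in the table the shares were 0.971%, 8.86% and 0.633%, and over the 10438 promoters of genes tested here they were 2.29%, 19.8% and 1.76%. Any of these motifs was in 25 of the 74 (33.8%), beside 22.9% of the promoters of genes tested. Most of the 74 thus held none, unlike those printed above. By complex, 4 of the 6 YY1 matches were in complex I promoters (Ndufa9, Ndufs4, Ndufs6 and Ndufs7). The other 2 were in both promoters listed for Atp5sl, which overlap. NRF1 matches were in the promoters of Ndufa11, Uqcrc1, Cox6a1, Atp5g2 and Atp5k. A match is a description of the letters, and these shares carry no test.

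Together the genes made up about 1% of all RPKM. The summed level of all 80 genes was 4533 and 4192 RPKM in cKO, against 4221 and 3882 RPKM in WT, which is 1.04% and 0.961% of all RPKM in cKO, against 0.981% and 0.912% in WT. The groups overlapped, and the difference of 311 RPKM did not pass an exact permutation test (two-sided p = 0.667, where 2 against 2 libraries cannot go below 0.333). It was 312 RPKM between the libraries numbered 1 and 309 RPKM between those numbered 2. The libraries numbered 1 were higher than those numbered 2 by 342 RPKM in cKO and 339 RPKM in WT. The genotype difference and the difference between numbers were thus of like size. Without cKO replicate 1 the genotype difference was 140 RPKM, without WT replicate 2 it was 141 RPKM, without WT replicate 1 it was 480 RPKM and without cKO replicate 2 it was 482 RPKM.

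**Figure D1:**
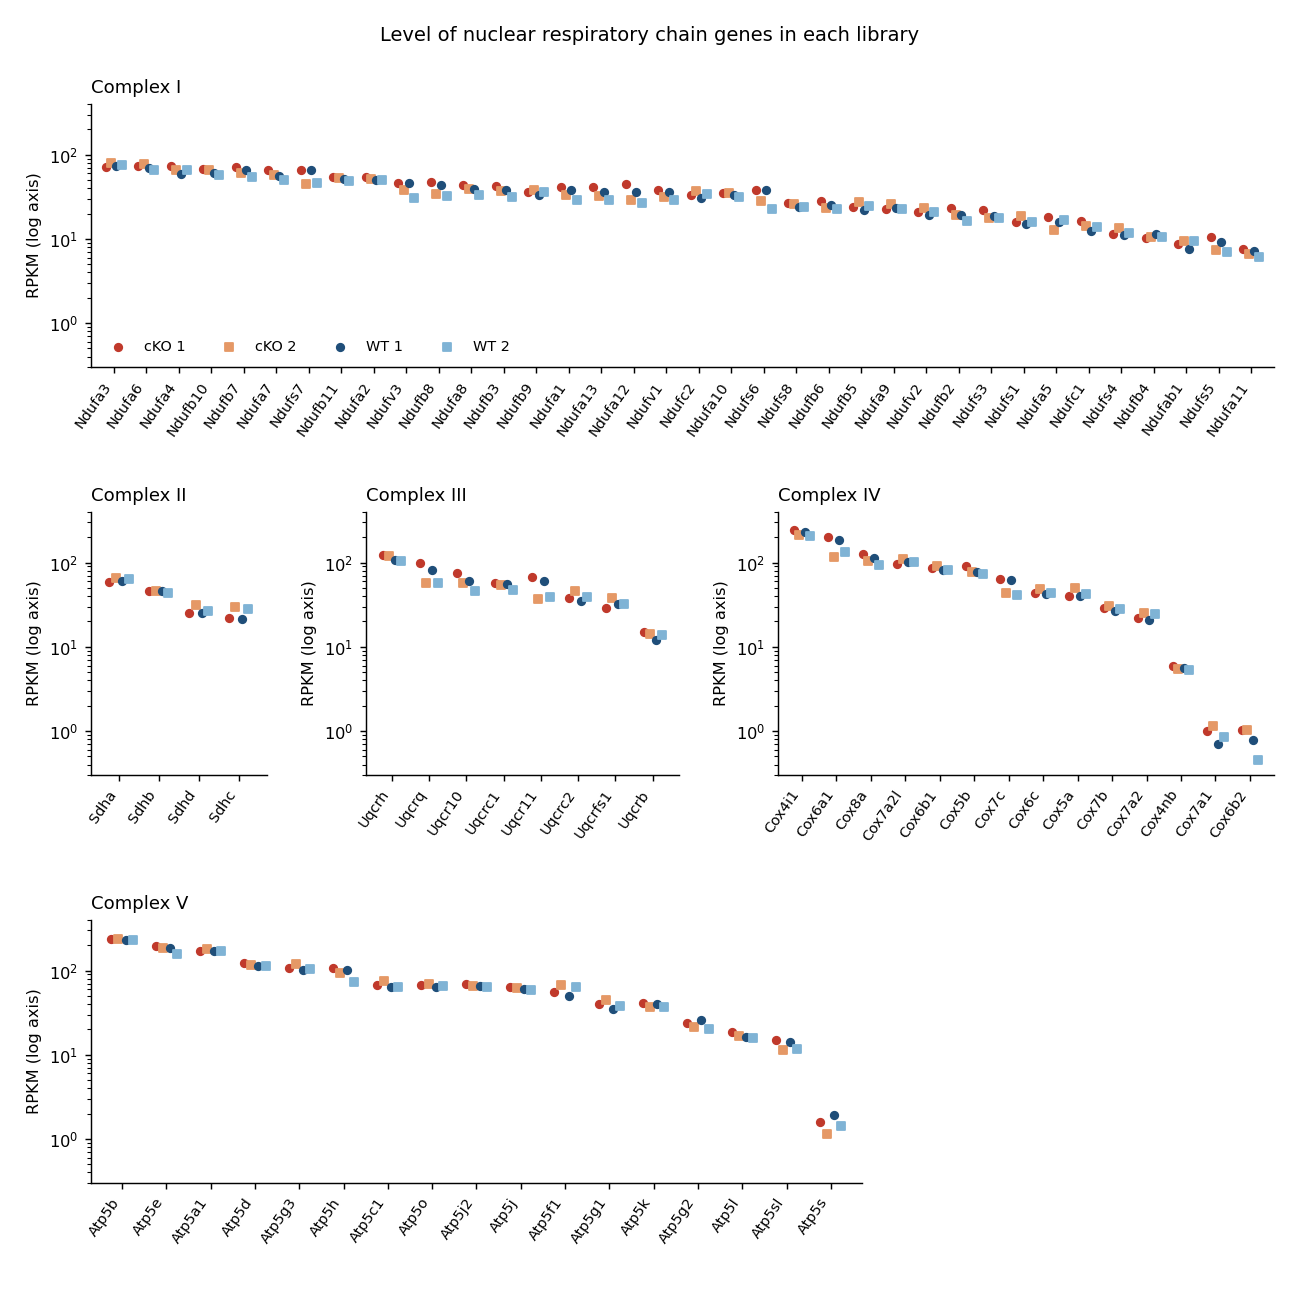
Level of 79 of the 80 genes (RPKM, log axis) in the 2 cKO libraries (reds) and the 2 WT libraries (blues), with circles for number 1 and squares for number 2. Genes run from the highest to the lowest mean within a complex. The 4 points of most genes lie close together, while Uqcr11, Uqcrq and Cox6a1 split by number and not by genotype.

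Complex I and complex V each made up about the same part of the summed level, and complex II the smallest part. Complex I took 31.2% and 30.5% in cKO, against 30.8% and 30.3% in WT. Complex II took 3.35% and 4.12% in cKO, against 3.61% and 4.16% in WT. Complex III took 11.1% and 10.1% in cKO, against 10.6% and 9.81% in WT. In each of these the 2 genotypes overlapped, and the 2 numbers differed in the same direction in both genotypes. Complex IV took 23.2% and 21.8% in cKO, against 23.4% and 22.6% in WT. Complex V took 31.1% and 33.4% in cKO, against 31.6% and 33.2% in WT. No share passed the exact permutation test between genotypes (p = 0.667 to 1.0, adjusted over the 5 complexes 0.834 to 1.0).

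Per gene, complexes IV, V and III stood above complexes I and II. The median level of complex I genes was 37.6 and 31.9 RPKM in cKO, against 35.6 and 28.9 RPKM in WT. That of complex II was 35.8 and 38.4 RPKM in cKO, against 35.3 and 35.4 RPKM in WT. That of complex III was 62.2 and 50.6 RPKM in cKO, against 58.4 and 42.8 RPKM in WT. Of these 3, only complex II had both cKO medians above both WT medians. The median of complex IV was 75.2 and 63.4 RPKM in cKO, against 69.0 and 58.2 RPKM in WT. That of complex V was 67.8 and 67.5 RPKM in cKO, against 63.5 and 63.9 RPKM in WT. Complex V was thus the second whose genotypes did not overlap, with means of 67.7 ± 0.223 RPKM in cKO and 63.7 ± 0.257 RPKM in WT (SD, n = 2 each). For complexes II and V the exact permutation p was 0.333, the smallest that 2 against 2 libraries can give, and 0.667 after adjustment over the 5 complexes. With the libraries scaled by their median ratio, the complex II difference was 0.776 RPKM, against 1.77 RPKM as deposited, and the complex V difference 2.19 RPKM, against 3.96 RPKM. Without cKO replicate 2 the complex II difference was 0.467 RPKM.

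**Figure D2:**
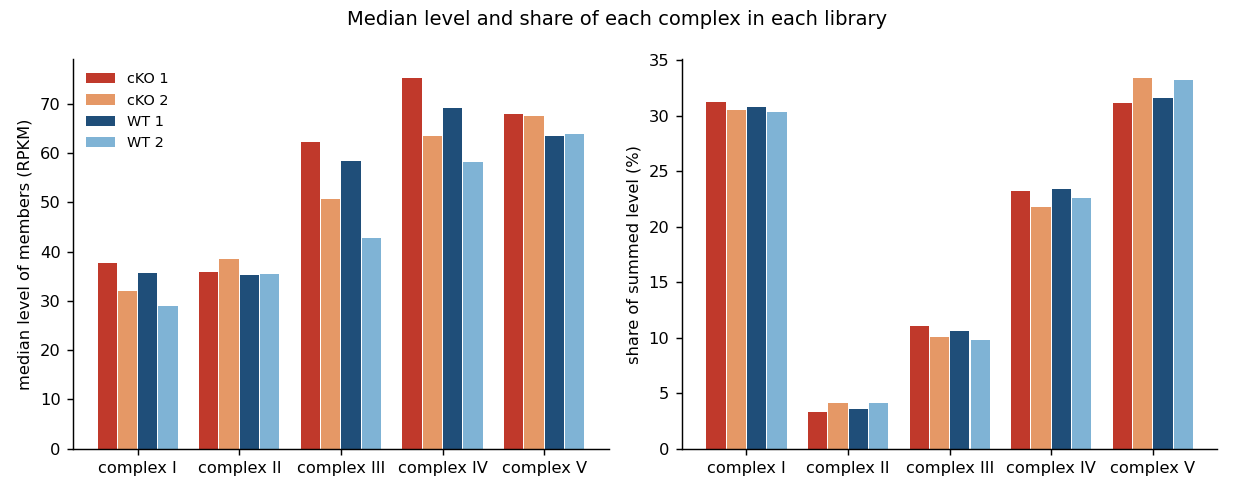
Left, median RPKM of the tested genes of each complex in each library. Right, share of each complex in the summed level of all 80 genes (%). Bars are single libraries, cKO in reds and WT in blues. Complex V medians are 67.8 and 67.5 RPKM in cKO and 63.5 and 63.9 RPKM in WT, and the medians of complexes I, III and IV differ more by number than by genotype.

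The order of the complexes followed the number of the library. In both libraries numbered 1 it was IV, V, III, I and II, from the highest median to the lowest. In both libraries numbered 2 it was V, IV, III, II and I. The neighbours that swapped places were therefore IV with V and I with II, and neither pair kept 1 order over the 4 libraries. The ratio of the complex I median to that of complex V was 0.554 and 0.472 in cKO, against 0.561 and 0.453 in WT. The ratio of complex III to complex V was 0.916 and 0.75 in cKO, against 0.919 and 0.67 in WT.

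Between genotypes, no gene of the respiratory chain passed the test. Limma on log2(RPKM + 1) with Benjamini-Hochberg adjustment over all genes called 0 of the 78 genes at 0.05, where it called 0 of 10531 genes (0%). Even the targeted gene was not called by limma, at a log2 fold change of -0.74 (SE 0.15, unadjusted p = 0.00295, adjusted p = 0.9998). A lack of calls in this fit is therefore weak evidence that levels are equal. With the replicate number as a block limma called 0 of the 78, where it called 1 of the 10531 (0.0095%). At an unadjusted p under 0.05 the fit without the block found 0 of the 78, beside 333 of all genes (3.16%). With the block, some of the 78 were under that level, among them Uqcr10, Ndufa7 and Ndufb10, though none was called after adjustment. The share of all genes under that level with the block is not given here. The direction leaned one way. The log2 fold change was above 0 in 71 of the 78 genes, that is 91.0%, beside 59.3% of all genes. Its median was 0.11, beside 0.029 over all genes. Both cKO libraries were above both WT libraries in 27 of the 78 (34.6%), beside 17.4% of all genes. Both were below in 0 of the 78, beside 9.02% of all genes. Within each number, the cKO library was higher in both pairs for 58 of the 78 (74.4%), beside 38.2%, and lower in both for 2, beside 23.9%. These shares describe the list and carry no test.

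The genes were short, with a median transcript length of 786 nt beside 2784 nt over all genes, and the lean was read beside genes of like length. Of all genes from 600 nt to under 1000 nt, 78.2% were above 0, beside 84.6% of the 26 respiratory chain genes of that length. Of all genes under 600 nt the share was 62.5%, beside 95.7% of the 23 such respiratory chain genes. Of all genes of 1000 nt and over it was 58.1%, beside 93.1% of the 29 such respiratory chain genes. The share of respiratory chain genes above 0 thus had no order by length. The size of the log2 fold change did fall with length. Its Spearman rho with transcript length was -0.291 over the 78 genes, beside -0.253 over the 10477 genes with a transcript length. With each library corrected for transcript length and GC content, 62 of the 78 (79.5%) were above 0, beside 60.4% of all genes, and the median was 0.048 beside 0.031. With the libraries scaled by their median ratio, 67 of the 78 (85.9%) were above 0, beside 48.0% of all genes, and the median was 0.072 beside -0.0058. Without WT replicate 2 the count was 57 of the 78 and the median 0.056, and without cKO replicate 1 they were 55 and 0.084. The genotype difference at number 1 did not track that at number 2 across the genes (Spearman rho -0.121 over 78 genes that share these 4 libraries, beside 0.349 over all 10531). The 3 of 5 B cell markers in the tables summed to 11.7 and 10.8 RPKM in cKO, against 8.46 and 6.78 RPKM in WT, with none at 0, and their part in the lean was not tested.

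**Figure D3:**
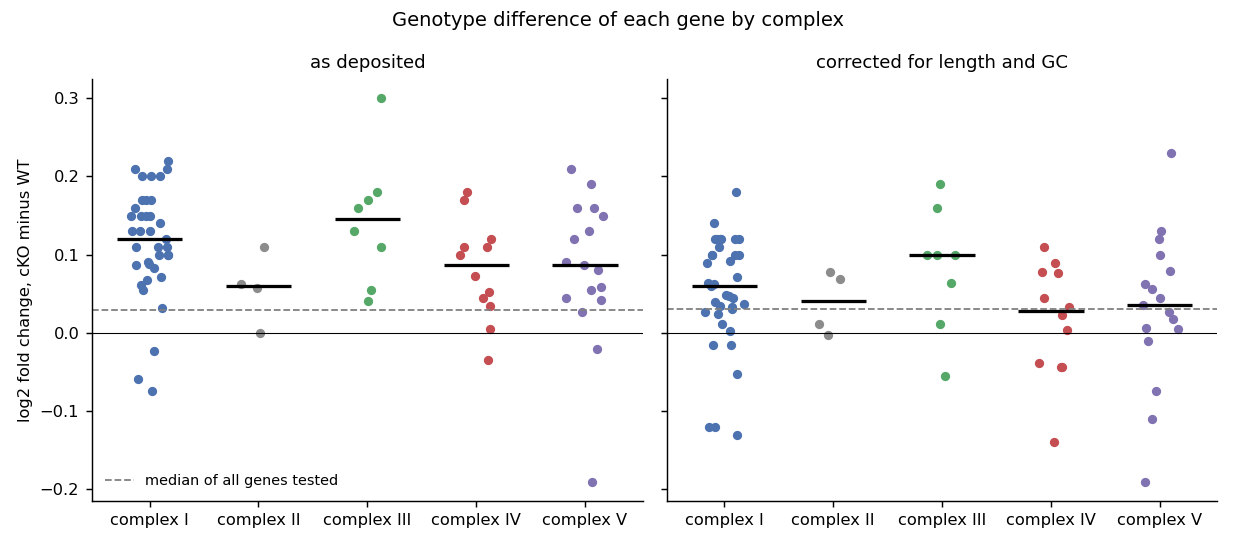
Log2 fold change (cKO minus WT, on log2(RPKM + 1)) of each tested gene, by complex, as deposited (left) and corrected for transcript length and GC content (right). Bars are the medians of each complex and the dashed line is the median of all 10531 genes. On the left 71 of 78 points lie above 0, and on the right 62.

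In complex I, which takes electrons from NADH, 34 of the 37 genes (91.9%) lay above 0 on the log2 scale, beside 59.3% of all genes. Both cKO libraries were above both WT libraries in 11 (29.7%), beside 17.4% of all genes. The median log2 fold change was 0.12. The median was 0.057 without WT replicate 2, 0.069 without cKO replicate 1, 0.22 without cKO replicate 2 and 0.060 with the length and GC correction. The 11 tested genes of the N module, which binds and oxidises NADH, were all above 0 (median 0.13). Those of the Q module, which hands electrons to ubiquinone, were above 0 in 4 of 6 (median 0.058). Those of the membrane arm, which holds the proton pumps, were above 0 in 18 of 19 (median 0.13). The modules were placed from textbook knowledge. The gene with the lowest p, Ndufb10 of the membrane arm (chr17:24722060-24724423 on GRCm38), stood at 68.1 and 66.2 RPKM in cKO, against 60.0 and 56.8 RPKM in WT. Its groups did not overlap, and its log2 fold change of 0.20 (SE 0.12) did not pass limma's test (unadjusted p = 0.148, adjusted p = 0.9998). Ndufc1, also of the membrane arm, stood at 16.5 and 14.4 RPKM in cKO, against 12.3 and 14.0 RPKM in WT. Ndufa7 of the N module stood at 65.1 and 57.7 RPKM in cKO, against 56.0 and 50.3 RPKM in WT. In both the cKO libraries were the higher ones.

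On the lower side of complex I, Ndufa5 of the Q module stood at 18.2 and 12.8 RPKM in cKO, against 15.7 and 16.6 RPKM in WT. Ndufb4 stood at 10.3 and 10.4 RPKM in cKO, against 11.3 and 10.4 RPKM in WT. The groups overlapped in both. By the mean of the 4 libraries, the highest gene of the complex was Ndufa3 of the membrane arm, at 72.3 and 79.8 RPKM in cKO, against 73.0 and 75.6 RPKM in WT. The highest of the N module was Ndufa6, at 73.5 and 77.5 RPKM in cKO, against 69.9 and 66.3 RPKM in WT. The groups overlapped in Ndufa3 and did not in Ndufa6, which was above Ndufa3 in cKO library 1, as was Ndufa4. The lowest was Ndufa11, at 7.54 and 6.70 RPKM in cKO, against 7.14 and 6.16 RPKM in WT, so levels within complex I spanned 9.74-fold to 12.3-fold, depending on the library. Ndufa4 stood at 73.3 and 65.6 RPKM in cKO, against 58.6 and 66.5 RPKM in WT, and its groups overlapped.

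Complex II, succinate dehydrogenase, had the narrowest span, 2.19-fold to 2.83-fold. Sdha, the flavoprotein that oxidises succinate (chr13:74322255-74350240 on GRCm38), stood at 58.5 and 65.9 RPKM in cKO, against 60.6 and 63.7 RPKM in WT. Sdhb, the iron-sulfur subunit, stood at 46.6 and 45.6 RPKM in cKO, against 45.5 and 43.0 RPKM in WT. Sdhb was the only one of the 4 genes whose groups did not overlap, by a gap of under 1 RPKM. The membrane anchors were lower than these. Sdhc stood at 21.7 and 30.1 RPKM in cKO, against 21.4 and 27.9 RPKM in WT, and Sdhd at 25.1 and 31.2 RPKM in cKO, against 25.1 and 26.8 RPKM in WT. Both anchors were higher in the libraries numbered 2 in each genotype. The ratio of Sdha to Sdhb was 1.26 and 1.44 in cKO, against 1.33 and 1.48 in WT. The median log2 fold change of the complex, 0.060, ran from -0.065 without cKO replicate 2 to 0.17 without cKO replicate 1.

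Complex III passes electrons from ubiquinol to cytochrome c. All 8 of its genes were above 0 on the log2 scale (median 0.14), beside 59.3% of all genes. In 2 (25.0%) both cKO libraries were above both WT libraries, beside 17.4% of all genes. The median was 0.069 without WT replicate 2 and 0.22 without WT replicate 1. Uqcr10, an accessory subunit (chr11:4701968-4704344 on GRCm38), stood at 74.8 and 57.7 RPKM in cKO, against 61.0 and 46.5 RPKM in WT. Its cKO library was the higher one within each number, by 0.29 at number 1 and 0.30 at number 2 on the log2 scale, while the groups overlapped. Its log2 fold change of 0.30 was the largest of the 78. With the replicate number as a block the SE was 0.055, and limma still did not call the gene after adjustment. Without the block the log2 fold change had an SE of 0.20 and did not pass limma's test (unadjusted p = 0.182, adjusted p = 0.9998). It was 0.10 without WT replicate 2, 0.11 without cKO replicate 1, 0.48 without cKO replicate 2, 0.49 without WT replicate 1 and 0.19 with the length and GC correction. Uqcrh, whose promoter is printed above, was the highest gene of the complex, at 123 and 119 RPKM in cKO, against 108 and 105 RPKM in WT. Uqcrb, the lowest, stood at 15.0 and 14.2 RPKM in cKO, against 12.0 and 14.0 RPKM in WT. Uqcrh and Uqcrb were the 2 genes without overlap.

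Complex IV, cytochrome c oxidase, held some of the highest levels of the chain. Of its 12 tested genes, 11 (91.7%) were above 0 on the log2 scale (median 0.086), beside 59.3% of all genes. In 4 (33.3%) both cKO libraries were above both WT libraries, beside 17.4% of all genes. The median was 0.048 with median-ratio scaling and 0.028 with the length and GC correction. It was 0.10 without the tissue-restricted and non-subunit names, and likewise with Ndufa4 counted in this complex. Cox4i1, the ubiquitous form of subunit 4 (chr8:120668225-120674209 on GRCm38), stood at 243 and 211 RPKM in cKO, against 232 and 206 RPKM in WT. Cox8a stood at 128 and 105 RPKM in cKO, against 113 and 92.7 RPKM in WT. These overlapped between genotypes and were higher in the libraries numbered 1. Cox5b stood at 92.2 and 77.0 RPKM in cKO, against 76.5 and 73.4 RPKM in WT. Cox7b stood at 29.2 and 30.8 RPKM in cKO, against 26.8 and 28.3 RPKM in WT. Both had cKO libraries above both WT libraries, Cox5b by less than 1 RPKM at the closest. Cox6a1 was the one gene of the complex with a log2 fold change below 0, at 199.9 and 118 RPKM in cKO, against 187 and 133 RPKM in WT. Its groups overlapped, with the cKO libraries holding the highest and the lowest value.

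The forms of complex IV subunits that most tissues use were far above the tissue-restricted ones. Cox6b1 stood at 85.6 and 90.4 RPKM in cKO, against 81.5 and 81.4 RPKM in WT. Cox6b2, the testis form, stood at 1.02 and 1.02 RPKM in cKO, against 0.778 and 0.453 RPKM in WT. Cox7a2 stood at 21.7 and 25.2 RPKM in cKO, against 21.1 and 24.7 RPKM in WT. Beside it Cox7a1, the heart and muscle form, was near 1 RPKM in each library. It stood at 0.995 and 1.16 RPKM in cKO, against 0.7 and 0.856 RPKM in WT. The supercomplex factor Cox7a2l stood at 97.0 and 109 RPKM in cKO, against 101 and 103 RPKM in WT. Both tissue-restricted genes had cKO libraries above both WT libraries at levels near or under 1 RPKM, where the depth is thin, and neither entered the test. The lowest tested gene, Cox4nb, stood at 5.90 and 5.53 RPKM in cKO, against 5.65 and 5.37 RPKM in WT. The isoforms Cox4i2, Cox6a2, Cox8b and Ndufa4l2 fit the name rule but were not among the genes it gave, so they have no values here.

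In complex V, the ATP synthase, 15 of the 17 genes (88.2%) were above 0 on the log2 scale (median 0.087), beside 59.3% of all genes. In 9 (52.9%) both cKO libraries were above both WT libraries, beside 17.4% of all genes. The 5 genes of the catalytic head and central stalk were all above 0. Atp5b, the catalytic beta subunit (chr10:128083307-128090388 on GRCm38), stood at 239 and 238 RPKM in cKO, against 230 and 229 RPKM in WT. Atp5a1, the alpha subunit, stood at 171 and 182 RPKM in cKO, against 170.5 and 172 RPKM in WT. The cKO libraries were above both WT libraries for Atp5b and not for Atp5a1. Atp5c1, the gamma subunit that turns inside the head (chr2:10056030-10080510 on GRCm38), stood at 67.8 and 74.4 RPKM in cKO, against 63.5 and 63.7 RPKM in WT. Its log2 fold change was 0.16 (SE 0.12), and it did not pass limma's test (unadjusted p = 0.251, adjusted p = 0.9998). Atp5d, the delta subunit, stood at 124 and 115 RPKM in cKO, against 113 and 113 RPKM in WT. Atp5e, the epsilon subunit, stood at 196 and 185 RPKM in cKO, against 183 and 158 RPKM in WT. All 3 of these rotor genes had groups that did not overlap.

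In the assembled enzyme alpha and beta are present in 3 copies each, and gamma, delta and epsilon in 1. The level of Atp5b over that of Atp5c1 was 3.52 and 3.20 in cKO, against 3.62 and 3.60 in WT. That of Atp5a1 over Atp5c1 was 2.53 and 2.45 in cKO, against 2.68 and 2.70 in WT. Both ratios were lower in each cKO library than in each WT library. The ratio of Atp5e to Atp5c1 followed the number instead, at 2.89 and 2.49 in cKO, against 2.88 and 2.47 in WT. The ratio of alpha to beta was 0.717 and 0.764 in cKO, against 0.741 and 0.75 in WT. These ratios of RNA levels were not tested.

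The c ring, the proton-driven rotor, is made of a single mature protein that 3 genes encode. The genes Atp5g1, Atp5g2 and Atp5g3 summed to 172 and 184 RPKM in cKO, against 162 and 162 RPKM in WT. Of that sum Atp5g3 gave 62.7% and 64.5% in cKO, against 62.2% and 63.8% in WT. Atp5g1 gave 23.5% and 24.0% in cKO, against 21.9% and 23.7% in WT. Atp5g3 was the largest source in every library. Atp5g2 gave 13.9% and 11.6% in cKO, against 16.0% and 12.5% in WT. By level, Atp5g1 (chr11:96072793-96075694 on GRCm38) stood at 40.3 and 44.1 RPKM in cKO, against 35.3 and 38.2 RPKM in WT, and Atp5g3 at 108 and 119 RPKM in cKO, against 100.4 and 103 RPKM in WT. Atp5g2 stood at 23.8 and 21.3 RPKM in cKO, against 25.8 and 20.2 RPKM in WT. The first 2 had groups that did not overlap and Atp5g2 had groups that did. The lowest gene of complex V was Atp5s, at 1.58 and 1.14 RPKM in cKO, against 1.93 and 1.44 RPKM in WT. The 4 genes of the peripheral stalk were all above 0, as were the 3 of the membrane part, beside 59.3% of all genes. The median log2 fold change of complex V was 0.036 with the length and GC correction, 0.049 with median-ratio scaling, and 0.056 without cKO replicate 1 and likewise without WT replicate 2.

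Many of the genes differed more by number than by genotype, at a share near that of all genes and slightly under it. Both libraries numbered 1 were above both numbered 2 in 31 of the 78 genes (39.7%), beside 29.0% of all genes, and below in 15 (19.2%), beside 31.9%. The difference between numbers was larger in size than that between genotypes in 49 of the 78 (62.8%), beside 67.5% of all genes. In complex II no gene was higher in both libraries numbered 1, and 3 of 4 were lower. In complex I, 16 genes were higher there and 6 were lower. Complex III had 4 and 1, complex IV 5 and 3, and complex V 6 and 2. The labels do not say what the numbers stand for.

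Uqcr11, a small subunit of complex III (chr10:80402997-80406821 on GRCm38), stood at 67.3 and 37.4 RPKM in cKO, against 60.4 and 38.6 RPKM in WT. Uqcrq, a ubiquinone-binding subunit, stood at 99.3 and 57.1 RPKM in cKO, against 82.4 and 57.8 RPKM in WT. Cox7c stood at 64.7 and 43.4 RPKM in cKO, against 61.5 and 41.2 RPKM in WT. In each the library numbered 1 was far above the library numbered 2 in both genotypes. Ndufs7 stood at 65.3 and 45.2 RPKM in cKO, against 66.3 and 45.9 RPKM in WT, nearly the same pair of values in each genotype. Atp5f1, the b subunit of the peripheral stalk, went the other way, at 56.3 and 67.5 RPKM in cKO, against 50.3 and 63.9 RPKM in WT. Such pairs of subunits gave ratios that changed with the number. Uqcr11 over Uqcrc2, a core subunit, was 1.78 and 0.807 in cKO, against 1.71 and 0.987 in WT. Cox6a1 over Cox5a was 5.02 and 2.38 in cKO, against 4.71 and 3.12 in WT.

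Across the 78 genes, the difference between numbers in cKO and that in WT moved together (Pearson r 0.804, Spearman rho 0.798, beside 0.507 and 0.683 over all 10531 genes). The points share these 4 libraries, and genes are not independent replicates. The difference also moved with base composition and length. Its Spearman rho with the GC content of the transcript was 0.522 over the 78 genes and 0.75 over 10477 genes with a transcript in the reference. With transcript length it was -0.401 over the 78 and -0.232 over the 10477. Of the 23 genes under 600 nt, 13 (56.5%) were higher in both libraries numbered 1, beside 30.8% of all genes of that length, and 1 (4.35%) was lower, beside 18.5%. Of the 26 from 600 nt to under 1000 nt, 9 (34.6%) were higher, beside 38.4%, and 3 (11.5%) lower, beside 14.7%. Of the 29 of 1000 nt and over, 9 (31.0%) were higher, beside 28.4%, and 11 (37.9%) lower, beside 33.5%. From 600 nt upwards the shares were near those of all genes. The 4 erythroid markers summed to 32.4 and 5.45 RPKM in cKO, against 18.0 and 8.72 RPKM in WT, with none at 0. The part of base composition, length and these markers in the difference between numbers was not tested.

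**Figure D4:**
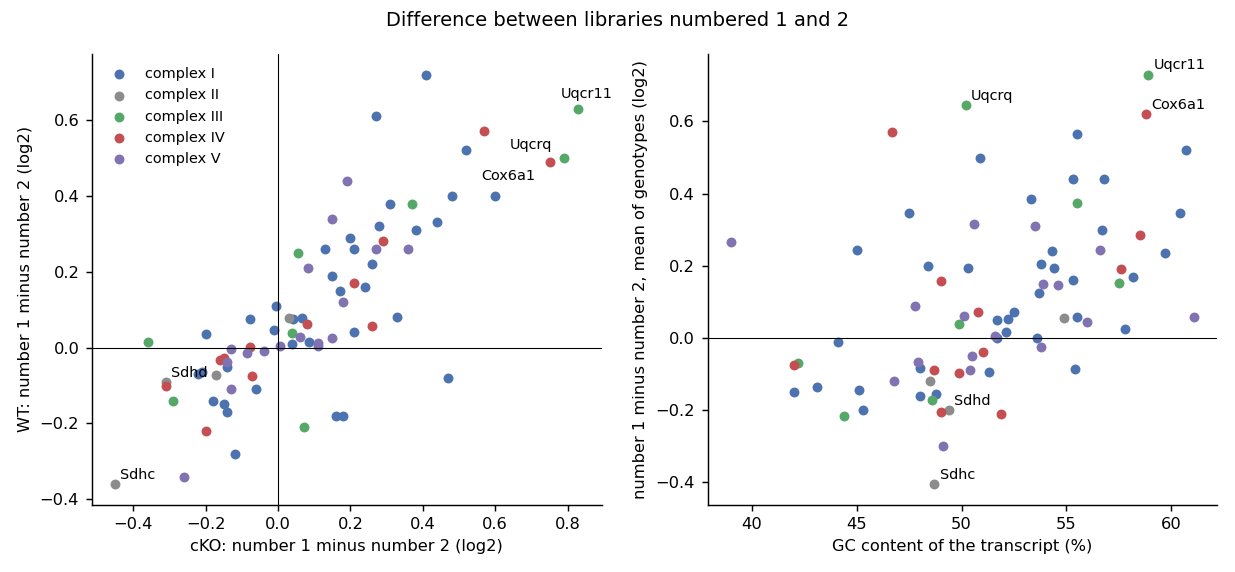
Left, difference between the libraries numbered 1 and 2 (log2(RPKM + 1)) in cKO (x) and in WT (y) for each tested gene, coloured by complex. Right, the mean of both differences against the GC content of the transcript (%). Uqcr11, Uqcrq and Cox6a1 lie at the high end in both genotypes and Sdhc at the low end, with Pearson r 0.804 on the left.

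The mitochondrial genes of the same complexes were higher in the libraries numbered 2. The 12 in the tables summed to 5947 and 9711 RPKM in cKO, against 6268 and 9758 RPKM in WT. All 10 that were tested were higher in both libraries numbered 2, beside 15 of the 78 nuclear genes and 31.9% of all genes. Between genotypes 0 of the 10 had a log2 fold change above 0, beside 59.3% of all genes. Their median was -0.018, and limma called 0. COX2 and ATP6 were under 0.5 RPKM in each library, where COX1 stood at 1693 to 2626 RPKM, and were not tested. The mitochondrial sum thus holds almost nothing from COX2 and ATP6. Why their values were so low was not tested, so they are not read as levels of expression. The ratio of the mitochondrial sum to the sum of the 80 nuclear genes was 1.31 and 2.32 in cKO, against 1.48 and 2.51 in WT. In each number the cKO library had the lower ratio.

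Some of these genes share sequence with other genes. Reads were 50 nt long, so every overlapping stretch of 50 bases in the coding part of each gene was sought in the transcripts of all other genes. In 6 genes, Atp5g1, Atp5g2, Atp5l, Cox7c, Ndufab1 and Ndufb4, at least 99% of such stretches also occurred in another gene's transcript. Their median level was 19.7 RPKM, beside 51.1 RPKM for the 35 genes with none. Split at 20% shared, the median was 37.8 RPKM for the 24 genes at or above it and 39.8 RPKM for the 54 below it, and the level had a Spearman rho of -0.213 with the shared part over the 78 genes. An effect of sharing on the levels was not tested. No source used here says how such reads were divided, so the levels of these 6 are uncertain. The coding sequences of Uqcr11, which is not 1 of these 6, and of Cox7c are shown as examples. They are as spliced on GENCODE M21 (GRCm38), with capitals for bases inside a shared stretch. Both genes are among those that differ most by number. In Uqcr11, 141 of 171 coding bases lie in stretches shared with Gm16418, and 35.2% of its 50-base stretches are shared. In Cox7c (chr13:86044798-86046795) all 192 lie in stretches shared with 3 other genes. Of the other genes named for a difference by number, Uqcrq and Ndufs7 share 0%, Cox6a1 22.1% and Atp5f1 49.9%. A part of sharing in that difference was not tested.
Uqcr11: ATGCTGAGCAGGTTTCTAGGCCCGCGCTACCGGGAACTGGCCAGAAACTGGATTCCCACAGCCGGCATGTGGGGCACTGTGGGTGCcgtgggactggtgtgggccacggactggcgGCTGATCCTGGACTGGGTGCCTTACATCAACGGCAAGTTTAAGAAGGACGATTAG
Cox7c: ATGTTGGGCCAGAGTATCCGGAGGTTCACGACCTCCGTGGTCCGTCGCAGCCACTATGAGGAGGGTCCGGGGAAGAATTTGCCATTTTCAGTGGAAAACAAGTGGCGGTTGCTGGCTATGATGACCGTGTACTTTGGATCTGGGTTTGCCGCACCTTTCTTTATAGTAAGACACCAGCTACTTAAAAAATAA

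Genes that build, regulate and surround the chain were read from lists chosen with earlier results known. Of 45 tested assembly factors, 28 (62.2%) had a log2 fold change above 0, beside 59.3% of all genes, and limma called 0. Both cKO libraries were above both WT libraries in 9 (20%), beside 17.4%, and below in 2 (4.44%), beside 9.02%. The assembly factors were thus near the shares of all genes. Cox10, which takes part in making heme a for complex IV, stood at 7.94 and 7.32 RPKM in cKO, against 6.72 and 6.08 RPKM in WT. Cox16 stood at 7.11 and 6.85 RPKM in cKO, against 6.44 and 5.18 RPKM in WT. These had the lowest p of the list, at log2 fold changes of 0.22 (SE 0.13) and 0.24 (SE 0.15). Of 13 tested regulators, 8 (61.5%) were above 0, also near the share of all genes, and limma called 0. Tfb1m, a methyltransferase of mitochondrial ribosomal RNA, stood at 2.38 and 3.81 RPKM in cKO, against 3.53 and 4.19 RPKM in WT. Tfb2m, a mitochondrial transcription factor, stood at 6.14 and 7.16 RPKM in cKO, against 6.91 and 8.28 RPKM in WT. Both were lower in cKO within each number and overlapped between genotypes.

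Of the factors whose motifs were searched, Nrf1 stood at 14.4 and 13.5 RPKM in cKO, against 14.6 and 13.2 RPKM in WT. Gabpa stood at 10.7 and 14.0 RPKM in cKO, against 12.4 and 14.5 RPKM in WT. Yy1 stood at 46.6 and 51.1 RPKM in cKO, against 46.3 and 49.1 RPKM in WT. All 3 overlapped between genotypes. Tfam, which packages mitochondrial DNA and helps to transcribe it, averaged 10.1 ± 0.0653 RPKM in cKO and 9.72 ± 0.141 RPKM in WT (SD, n = 2 each). Its groups did not overlap, and its log2 fold change of 0.049 (SE 0.12) did not pass limma's test (unadjusted p = 0.697, adjusted p = 0.9998). Of the coactivators and receptors that act with these factors, Ppargc1b stood at 5.32 and 4.09 RPKM in cKO, against 4.33 and 4.50 RPKM in WT. Pprc1 stood at 16.2 and 17.9 RPKM in cKO, against 16.8 and 17.3 RPKM in WT. Both overlapped. Esrra stood at 20.2 and 13.7 RPKM in cKO, against 17.8 and 12.6 RPKM in WT, higher at number 1 in each genotype.

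Of the 9 other carriers and subunits, 8 (88.9%) had a log2 fold change above 0, beside 59.3% of all genes. Slc25a4, which exchanges ADP for ATP across the inner membrane, stood at 60.3 and 58.2 RPKM in cKO, against 49.9 and 44.5 RPKM in WT. Its groups did not overlap, its mean was 59.2 ± 1.45 RPKM in cKO and 47.2 ± 3.86 RPKM in WT (SD, n = 2 each), and its log2 fold change was 0.32 (SE 0.13). It did not pass limma's adjusted test (unadjusted p = 0.0453, adjusted p = 0.9998). Atpif1, the inhibitor of the ATP synthase, stood at 29.5 and 26.8 RPKM in cKO, against 26.2 and 21.7 RPKM in WT, also without overlap. Cyc1, the cytochrome c1 subunit of complex III that the name rule leaves out, stood at 54.3 and 46.7 RPKM in cKO, against 52.8 and 41.3 RPKM in WT. Cycs, cytochrome c itself, stood at 6.10 and 8.70 RPKM in cKO, against 4.71 and 8.24 RPKM in WT. These last 2 overlapped between genotypes, Cyc1 with higher values at number 1 and Cycs with higher values at number 2.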

How the data were processed

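RNA-seq was measured in 4 libraries, 2 of each genotype, grouped by the labels. The authors deposited RPKM values for 19291 transcripts per library, with the unit read from the values. Per the submitters' processing notes, HISAT2, DESeq2 and mm10 were used, in roles and versions not stated. The counting tool, any row filter and the handling of reads that fit several places were not given in the sources used here. Depth came from the steps between low values: 65.2% to 72.5% of 460 to 624 values per library lay within 0.1 of a whole read. A level of 1 RPKM on 1 kb then stands for 19.04 to 21.2 reads.

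Rows were named by RefSeq accession (16720) or by name (968); 1603 rows without a gene name, 10.9% to 12.17% of the RPKM sum, stayed out of the tests. Genes averaging 1 RPKM or more were fitted with limma 3.58.1 (R 4.3.3), trend and robust, on log2(RPKM + 1), a scale that understates changes of low genes, with genotype as the only term. P-values are two-sided and adjusted over all 10531 genes. Complex values were tested by exact permutation of the 4 libraries. Counts over lists carry no test. Lengths and GC content came from GENCODE M21, which need not match the RefSeq versions in the files. Python 3.11.15, pandas 2.3.3, scipy 1.17.1 and matplotlib 3.10.9 were used, and the fit was tested on simulated data. Alternatives were the block, leaving out each library, pseudocount, filter, scaling, transcript sums, membership and a loess correction for length and GC content.

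The members and lists were chosen with earlier results of these data known. Genes named were, per complex, the highest and lowest, up to 3 of lowest p on the higher side and 2 on the lower, the genes of complex II, the ATP synthase head and c ring, isoform pairs, the highest genes of complex I modules, and listed pathway genes, of which 1 gene is not reported here; Uqcr11, Uqcrq, Cox7c, Ndufs7, Atp5f1, Uqcrc2, Cox5a and Yy1 were added after their values were seen, as were the genes whose sequences are printed.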

Additional observations from a re-analysis of the deposited data

How the results depend on the processing

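No respiratory chain gene was called in any of the 12 settings, and 55 to 73 genes had a log2 fold change above 0. Over all genes, the number called was 37 to 75 without 1 library and 27 with the replicate block and the length and GC correction. The median log2 fold change of complex II ran from -0.065 to 0.17 without 1 library. That of complex V ran from 0.056 to 0.11 without 1 library, and was 0.049 with median-of-ratios scaling and 0.036 with the length and GC correction, with or without the block. The complex V median difference in RPKM was 2.19 with that scaling, 5.05 with transcripts summed and 4.51 without tissue-restricted and non-subunit names. It was 5.91 without the 6 genes whose coding part is shared, an alternative chosen, like leaving out Cox4nb, after seeing the data. With 1 library left out, the lone library is assumed to vary like the others. The cause of these moves was not tested.

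Only 2 pairs share a replicate number and the labels do not say what it marks, so the numbers were not treated as a pairing. The difference between numbers in cKO correlated with that in WT at 0.507 over all genes. With the replicate block limma called 1 gene over all genes and 0 of the 78, and the medians of complexes I to V were 0.12, 0.060, 0.14, 0.086 and 0.087.

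Single genes named in the text changed sign, none of them called. Without 1 library, log2 fold changes ran from -0.038 to 0.10 for Ndufa3, -0.0061 to 0.18 for Ndufa11, -0.31 to 0.16 for Ndufa5, -0.085 to 0.085 for Sdha, -0.16 to 0.29 for Sdhc and -0.045 to 0.26 for Sdhd. They ran from -0.051 to 0.15 for Cox4i1, -0.41 to 0.34 for Cox6a1, -0.076 to 0.14 for Cox7a2, -0.076 to 0.087 for Cox7a2l and -0.19 to 0.15 for Atp5g2. They ran from -0.067 to 0.28 for Cyc1, -0.16 to 0.54 for Cycs, -0.06 to 0.077 for Nrf1, -0.30 to 0.063 for Gabpa, -0.089 to 0.22 for Ppargc1b, -0.069 to 0.063 for Pprc1 and -0.12 to 0.41 for Esrra. With the length and GC correction, with or without the block, the values were -0.052 for Ndufa3, -0.016 for Ndufa11, 0.012 for Sdha, -0.0023 for Sdhb, -0.038 for Cox4i1, -0.043 for Cox7a2, -0.043 for Cox7a2l, -0.010 for Atp5d and 0.017 for Pprc1. With median-of-ratios scaling they were -0.0066 for Ndufa3, -0.0030 for Cox7a2, -0.033 for Cox7a2l and -0.028 for Nrf1. At these depths transcripts under 1 RPKM rest on few reads.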
